A study of Mus musculus with 8 samples.

Results

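The mitochondrial genome is a small circular DNA carried in many copies by each cell, apart from the nuclear chromosomes. It encodes subunits of the respiratory chain and of ATP synthase, together with the 2 ribosomal RNAs and 22 tRNAs that its own ribosomes need to translate them. Both strands are copied from promoters in the noncoding control region into long precursors, and tRNAs that lie between the other genes are cut out to release ribosomal and messenger RNAs, an arrangement known as tRNA punctuation. Most mRNAs and both rRNAs come from the heavy-strand precursor, which reads as the plus strand of the reference, while mt-Nd6 and several tRNAs come from the light-strand precursor. Mitochondrial mRNAs carry short poly(A) tails, so they enter libraries that select for poly(A), and neurons, which spend much energy on ion pumping, hold large amounts of them.

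The features described here are the rows of the expression table placed on chromosome M, 13 of 56575 features in all. Each was included by its mm10 coordinates, in a set chosen with earlier results of these data known. Hippocampal RNA was sequenced from mice of strain C57BL/6 aged 8 weeks. Of the 8 libraries, 4 carry the genotype label WT and 4 the label Slm2KO, with no treatment named for either group. SLM2 is the splicing regulator encoded by Khdrbs3. The labels do not state how the knockout was made, whether the animals were littermates or whether each sample is a separate animal. Genotype is the only factor that the labels set apart.

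Summed over all features of the table, the libraries held 104020058 to 125985224 reads. Shares of a library below are percents of this sum, which need not equal the reads sequenced. The hippocampal neuron markers (8 of 8) were above 0 in every library. Khdrbs3 was not lower under the knockout label, at 19458 to 24544 normalised reads in WT and 25932 to 33366 in Slm2KO libraries; the table has 1 value for the whole gene, which cannot show loss of a part of it, so each direction below rests on the labels alone. Choroid plexus RNA varied widely: the summed level of its 10 markers ran from 229926 to 1860625 in WT and from 392584 to 2352694 in Slm2KO libraries. It was lowest in WT 2 and highest in Slm2KO 4.

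No feature on chromosome M has a symbol in the table, so genes were read from the overlap of each interval with GENCODE vM21, which is built on the same assembly. Some interval edges met gene edges: one feature ended with mt-Nd4 at 11544, the next plus-strand feature began with mt-Nd5 at 11742, and another began with mt-Rnr2 at 1094. Others did not. The mt-Rnr1 feature ended at 957, inside the gene, which runs to 1024. The mt-Nd3 feature, of 346 bases, was shorter than its gene of 348, and the mt-Co1 feature, of 1617 bases, was longer than its gene of 1545. All 13 features passed the filter of a mean normalised read count of at least 10. Of these, 8 are on the plus strand and 5 on the minus strand. Several hold more than 1 gene, so the rRNAs cannot be fully separated from mRNAs: GSMG0041512 (chrM:1094-3841) holds mt-Rnr2, mt-Tl1, mt-Nd1 and mt-Ti together. GSMG0041518 (chrM:11742-15288) holds mt-Nd5 and mt-Cytb, and GSMG0041516 (chrM:9876-11544) holds mt-Nd4l and mt-Nd4. Of the 22 tRNA genes, 4 lie whole inside a feature of their own strand and 1 in part, while 7 lie in no feature. The other 10 overlap only a feature of the opposite strand, some in part, such as mt-Ty by 2 of 67 bases and mt-Tl2 by 22 of 71. No tRNA level can be given.

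Gaps between plus-strand features that hold plus-strand tRNA genes are shown first, because these tRNAs lie between the features the values describe. The intervals are the table's feature edges and not measured transcript ends. The gap from 958 to 1093 holds the end of mt-Rnr1 and then mt-Tv. The gap from 9805 to 9875 holds the last bases of mt-Nd3 and mt-Tr. The gap from 11545 to 11741 holds mt-Th, mt-Ts2 and mt-Tl2, between mt-Nd4 and mt-Nd5, and the gap from 15289 to 15355 is mt-Tt alone. The gaps from 3842 to 3844 and from 5172 to 5324 overlap the minus-strand tRNA genes mt-Tq, mt-Tc and mt-Ty, whereas the plus-strand tRNA genes mt-Tl1, mt-Ti, mt-Tm and mt-Tw lie inside features with no gap. Their plus-strand sequences in GENCODE vM21 (GRCm38) are given 5′ to 3′ at chrM:1025-1093, chrM:9808-9875, chrM:11546-11612, chrM:11613-11671, chrM:11671-11741 and chrM:15289-15355.
mt-Tv: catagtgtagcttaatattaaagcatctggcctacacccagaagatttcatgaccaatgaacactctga
mt-Tr: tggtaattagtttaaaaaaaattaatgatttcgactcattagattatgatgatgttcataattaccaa
mt-Th: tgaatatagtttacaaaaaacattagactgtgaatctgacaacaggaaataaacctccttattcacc
mt-Ts2: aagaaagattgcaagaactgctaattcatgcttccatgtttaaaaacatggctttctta
mt-Tl2: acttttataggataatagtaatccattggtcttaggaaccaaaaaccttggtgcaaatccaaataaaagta
mt-Tt: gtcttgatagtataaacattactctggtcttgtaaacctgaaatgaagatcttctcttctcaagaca

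The longest gap, chrM:6942-9458 (2517 bases), spans mt-Co2, mt-Atp8, mt-Atp6 and mt-Co3 with their tRNAs mt-Td, mt-Tk and mt-Tg, and no plus-strand feature analysed here covers it. Features over copies of these genes on chromosome 1 do hold reads. A nuclear copy of part of the mitochondrial genome lies there, and 23 annotated nuclear genes share at least 1 stretch of 30 bases with mitochondrial genes, 12 of them at least 100 such stretches. Over 681 aligned bases the annotated copy Gm28661 has 0 mismatches to mt-Co2. Gm10925 has 0 mismatches to mt-Atp6 over 678 bases, and Gm28437 has 0 to mt-Co3 over 783 bases. Reads from these stretches cannot be told apart by sequence. The start of mt-Co2 (chrM:7013-7072, plus strand) and of its copy (chr1:24615506-24615565, minus strand) show this.
mt-Co2: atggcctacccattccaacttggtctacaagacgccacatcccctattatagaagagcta
Gm28661: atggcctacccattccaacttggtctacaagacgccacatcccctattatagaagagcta

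For mt-Nd3, whose reads are listed on chromosome M, the copy Gm28438 differs by 1 base of 345, T3C, counted from the first base of the annotated mt-Nd3 gene with the mitochondrial base first. The capital marks that base at chrM:9459-9518 (plus strand) and chr1:24613060-24613119 (minus strand).
mt-Nd3: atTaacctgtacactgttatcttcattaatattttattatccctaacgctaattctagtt
Gm28438: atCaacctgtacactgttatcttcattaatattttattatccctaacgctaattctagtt

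The copy of mt-Co1, Gm29216, differs at 6 of 492 bases, and its opposite strand carries a feature described below. The copies Gm28439 and Gm10222 of mt-Nd4 and mt-Nd4l also have 0 mismatches, over 876 and 294 bases. The feature of both genes on chromosome M holds reads. No feature under 5000 bases overlaps these copies, but 1 longer feature overlaps each, and its reads were not examined. Longer features are not in the totals with copies below.

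The chromosome 1 feature over the mt-Co2 copy, GSMG0043410 (chr1:24614879-24615568, minus strand), held 712101 ± 52862 normalised reads in WT and 734269 ± 56728 in Slm2KO libraries (SD, n = 4). The feature over the mt-Atp6 and mt-Co3 copies, GSMG0043411 (chr1:24613188-24614814, minus strand), held 1946759 ± 157496 and 2027409 ± 164179 (SD, n = 4). All mitochondrial totals below are for the 13 features on chromosome M, and totals with the 4 features over the chromosome 1 copies are given beside them. The labels do not say how the authors placed reads that match both genomes.

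Chromosome M took 11.6% ± 0.745 of the reads of WT libraries and 12.1% ± 0.492 of those of Slm2KO libraries (SD, n = 4), a difference within the spread. The WT libraries 1 to 4 were at 11.50%, 10.68%, 11.83% and 12.47%. The Slm2KO libraries 1 to 4 were at 11.77%, 11.66%, 12.14% and 12.75%. The groups overlapped throughout, with the lowest library in WT and the highest in Slm2KO. The difference was 0.456 percentage points (two-sided exact permutation p = 0.371; the smallest p that 4 against 4 allows is 0.0286). With the chromosome 1 copies added the shares were 13.9% ± 0.883 and 14.5% ± 0.695 (SD, n = 4; exact permutation p = 0.429).

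The sample descriptions carry numbers that fall into a lower and a higher range, and the share separated by range. The 4 libraries with lower numbers (WT 1, WT 2, Slm2KO 1 and Slm2KO 2) lay between 10.68% and 11.77%, and the 4 with higher numbers between 11.83% and 12.75%, without overlap. The labels do not say what the numbers stand for, and this division was noticed in the data and has no test. Each label has 2 libraries in each range. Within the lower numbers the Slm2KO libraries were 0.620 percentage points above the WT libraries, and within the higher numbers 0.292 above. The libraries with the lowest and the highest share, WT 2 and Slm2KO 4, are also those with the least and the most Ttr, the transthyretin mRNA of choroid plexus, at 219052 and 2262370 normalised reads. The libraries between them did not all keep the order of Ttr. WT 4, next to highest in share, had 794256 reads of Ttr, and WT 1, next to lowest in share, had 1519675. Without WT 2 and Slm2KO 4 the difference between labels was -0.079 percentage points, of the opposite sign. These 2 are also the lowest WT and the highest Slm2KO share, so leaving them out lowers the difference whatever their Ttr. The part of choroid plexus RNA in the share was not tested.

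**Figure D1:**
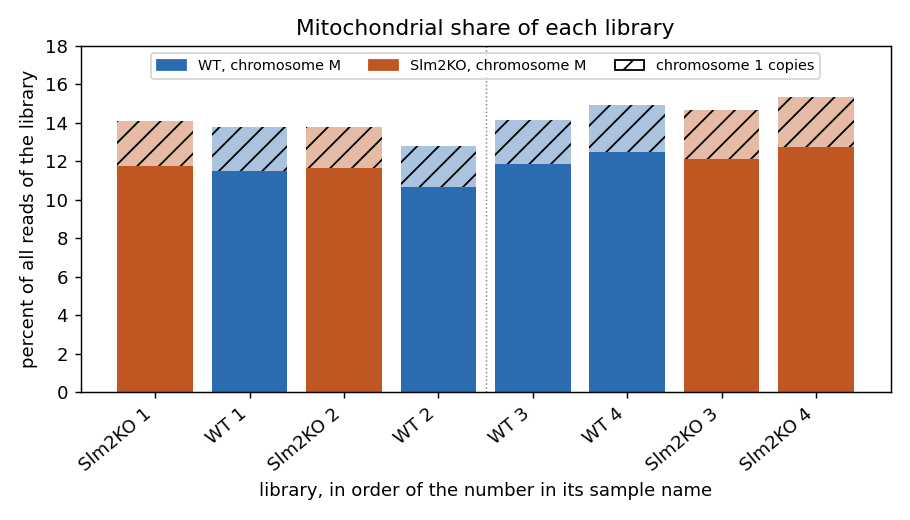
Percent of each library's reads, summed over all features, on chromosome M (solid bars) and on the 4 features over its chromosome 1 copies (hatched). Libraries are ordered by the number in the sample name, with a dotted line between the lower and the higher numbers. The 4 libraries on the right, 2 of each label, sit at 11.83% to 12.75% on chromosome M, above the 4 on the left at 10.68% to 11.77%.

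The mt-Co1 feature was the highest of all along the genome. mt-Co1 encodes the catalytic subunit of cytochrome c oxidase, complex IV, and its feature GSMG0041514 (chrM:5325-6941) took 37.7% ± 1.01 of the chromosome M reads in WT and 37.9% ± 1.08 in Slm2KO libraries (SD, n = 4). Its normalised read counts were 5060357, 4609203, 5147408 and 5384812 in WT libraries 1 to 4. In Slm2KO libraries 1 to 4 they were 5356299, 5064593, 5412336 and 5273547. WT 2 was lowest, and the other 7 values lay close together across both labels.

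Levels are compared per base of the feature's interval, as normalised reads per base over all 8 libraries. Intervals differ in how much lies outside their genes. That of mt-Nd2 has 1327 bases for a gene of 1038, and that of mt-Nd5 and mt-Cytb has 3547 for genes of 1824 and 1144. The order below is therefore one of intervals and may differ from that of the genes. The mt-Co1 feature stood at 3193 ± 163 (SD, n = 8), above the range of every other feature. Next came the chromosome 1 features over mt-Atp6 and mt-Co3, subunits of ATP synthase and complex IV, at 1221 ± 95.3, and over mt-Co2, another complex IV subunit, at 1048 ± 75.5 (SD, n = 8). Their ranges overlapped, although the first was above the second in 8 of 8 libraries. The complex I genes mt-Nd4l and mt-Nd4 followed at 998 ± 54.6 per base, below the mt-Co2 copy in 7 of 8 libraries.

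The mt-Nd5 and mt-Cytb feature, for complex I and complex III, was at 811 ± 54.8 per base. The feature with mt-Rnr2, the large rRNA, and mt-Nd1, a complex I subunit, was at 758 ± 70.6, and the mt-Nd2 feature (GSMG0041513, chrM:3845-5171; complex I) at 744 ± 56.5 (SD, n = 8). The latter pair kept no fixed order: the first was higher in 5 of 8 libraries. The mt-Nd3 feature (GSMG0041515, chrM:9459-9804, complex I) and the mt-Rnr1 feature (GSMG0041510, chrM:68-957), which holds the small rRNA, were lowest among the features that hold heavy-strand genes. They stood at 605 ± 75.8 and 589 ± 79.6 and also did not keep one order (5 of 8 libraries). The plus-strand control region, GSMG0041519 (chrM:15356-16294), was far below at 54.2 ± 3.53 per base. The features that hold rRNA took 18.9% ± 1.24 and 19.2% ± 0.456 of the chromosome M reads in WT and Slm2KO (SD, n = 4), against 79.8% ± 1.33 and 79.7% ± 0.461 for the 5 plus-strand features with mRNA and no rRNA. These are shares of reads and do not rank rRNA and mRNA in the tissue. Whether the libraries took up both kinds of RNA equally was not tested.

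**Figure D2:**
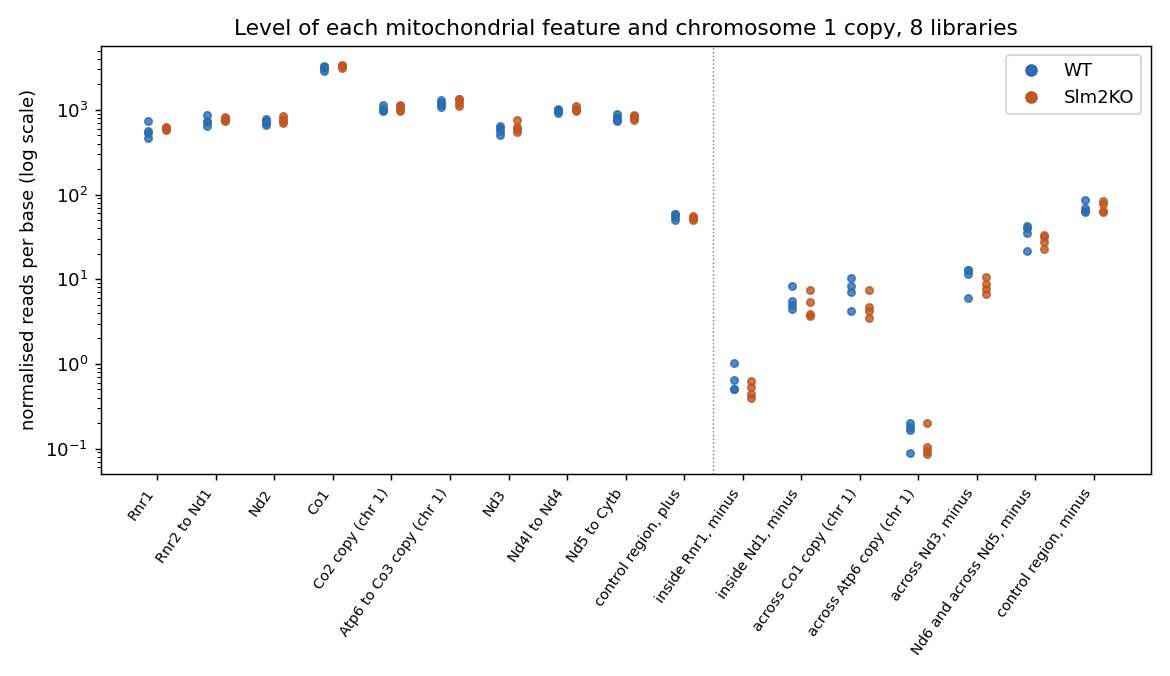
Normalised reads per base of interval (log scale) for the 13 chromosome M features and the 4 features over chromosome 1 copies, 1 point per library, WT in blue and Slm2KO in orange; features sense to the heavy-strand transcripts are left of the dotted line, those on the opposite side right of it. The mt-Co1 feature is highest in every library, and the opposite-side features other than the control region lie far below the genes they cross.

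Features on the minus strand hold few reads next to those they cross. The light-strand mRNA mt-Nd6, for a complex I subunit, lies in GSMG0041522 (chrM:11720-14070), which also crosses all of mt-Nd5. Its level was 31.6 ± 7.46 normalised reads per base (SD, n = 8), or 2.94% to 4.81% of the per-base level of the mt-Nd5 and mt-Cytb feature over the 8 libraries. GSMG0041521 (chrM:9203-9888), which crosses mt-Nd3, mt-Tg and mt-Tr and the end of mt-Co3, reached 1.14% to 2.08% of the mt-Nd3 feature. GSMG0041520 (chrM:3401-3555), inside mt-Nd1, reached 0.477% to 0.958% of the feature around it, and GSMG0041517 (chrM:332-623), inside mt-Rnr1, 0.0622% to 0.138%. The control region is the exception: GSMG0041524 (chrM:15763-16189), on the side of the light-strand promoter, was at 118% to 167% of the plus-strand control region per base. The kit named in the labels does not mark strand and no source states the counting rule, so these values are what the table assigns to each feature and not measured strand levels.

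The letters of 2 minus-strand stretches are shown because the overlap bears on how such reads can be assigned. The genes mt-Nd5 and mt-Nd6 end on each other and share 14 bases, in capitals, at the end of mt-Nd5 (chrM:13506-13565, plus strand) and of mt-Nd6 (chrM:13552-13611, minus strand); these capitals are reverse complements. The stretch inside mt-Nd1 is given whole (chrM:3401-3555, minus strand).
mt-Nd5 end: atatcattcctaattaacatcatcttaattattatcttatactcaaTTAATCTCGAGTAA
mt-Nd6 end: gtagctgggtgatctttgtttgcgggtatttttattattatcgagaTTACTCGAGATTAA
antisense of mt-Nd1: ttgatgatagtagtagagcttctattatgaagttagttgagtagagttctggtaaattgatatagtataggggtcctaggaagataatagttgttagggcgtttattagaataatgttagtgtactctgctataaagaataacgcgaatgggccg

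The letters differ between the strands' products. In mt-Nd6 28.1% of the bases are G and 5.97% are C, while in the 12 plus-strand mRNA genes G makes up 5.88% to 16.1%. Of the 13 mRNA genes, 3 (mt-Co3, mt-Nd4 and mt-Cytb) have a length that is not a multiple of 3 and end in a lone T, which the poly(A) tail completes to a stop codon.

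The opposite-side features varied more between libraries than the genes they cross. For the mt-Nd6 feature GSMG0041522 the normalised read counts were 82558, 50427, 93539 and 99004 in WT libraries 1 to 4 and 77972, 53513, 64889 and 73173 in Slm2KO libraries 1 to 4. WT 2 and Slm2KO 2 were lowest and WT 4 and WT 3 highest, a 1.96-fold range. GSMG0041521, which crosses mt-Nd3, held 7974, 4135, 8765 and 8809 in WT and 7379, 4631, 5278 and 5987 in Slm2KO libraries 1 to 4. Its 8 libraries stood in the same order as those of the mt-Nd6 feature, with a 2.13-fold range. The plus-strand features they cross did not share that range: 1.22-fold for mt-Nd5 and mt-Cytb and 1.51-fold for mt-Nd3.

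The chromosome 1 copies showed a like spread on their opposite strand. GSMG0043412 (chr1:24615710-24615972, plus strand), across the mt-Co1 copy, held 1859, 1094, 2185 and 2691 normalised reads in WT and 1937, 917, 1231 and 1098 in Slm2KO libraries 1 to 4. GSMG0043413 (chr1:24613965-24614713, plus strand), across the mt-Atp6 copy, ran from 64.2 to 151. In both, Slm2KO 2 and WT 2 were lowest and WT 4 highest. These 2 libraries also have the lowest Ttr, at 376053 in Slm2KO 2 and 219052 in WT 2, but Slm2KO 4, with the highest Ttr, was the next lowest in both. The part of choroid plexus RNA in this spread was not tested. The smaller minus-strand features followed this order only in part. Inside mt-Rnr1, Slm2KO 4 was lowest at 114 normalised reads and WT 4 highest at 301, and inside mt-Nd1 the range was 566 in Slm2KO 2 to 1274 in WT 4. WT 2 was neither lowest nor next to lowest in them, at 149 inside mt-Rnr1 and 860 inside mt-Nd1. The minus-strand control region ranged only 1.40-fold, with Slm2KO 2 among its highest values.

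**Figure D3:**
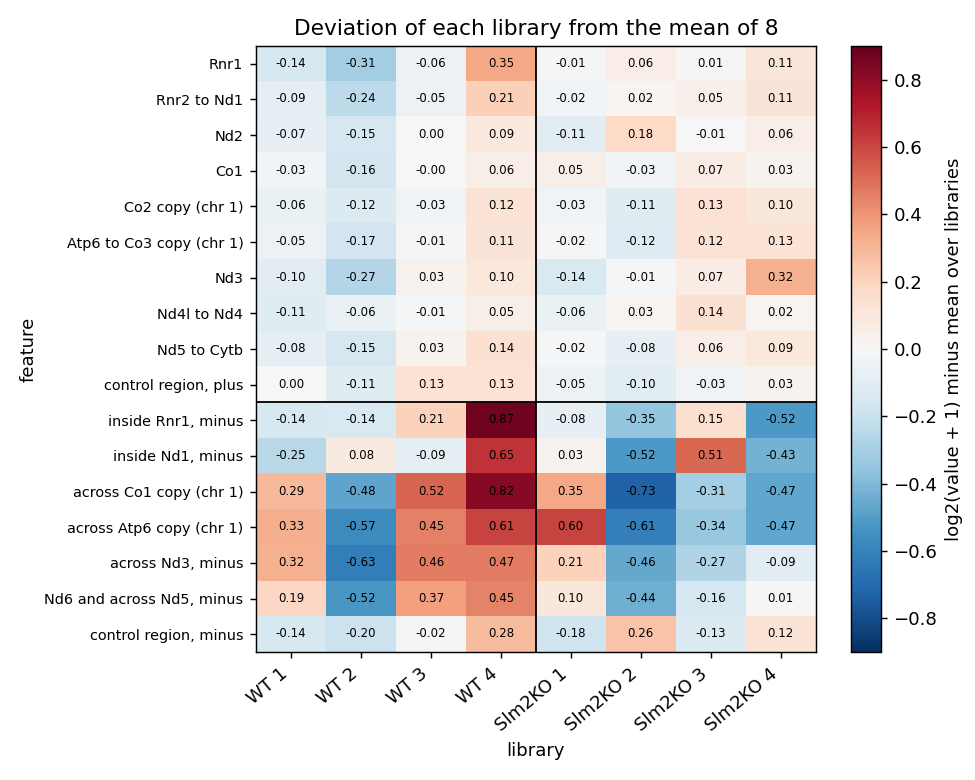
Deviation of log2(normalised read count + 1) in each library (columns) from the mean of the 8 libraries, for each feature (rows); red is above and blue below the mean, and the horizontal line parts features sense to the heavy-strand transcripts from those on the opposite side. Below the line WT 2 and Slm2KO 2 are at -0.52 and -0.44 and WT 4 at 0.45 for the mt-Nd6 feature, while mt-Co1 stays within -0.16 to 0.07.

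Between the labels, no mitochondrial feature passed. In limma on log2(normalised read count + 1) over all 25667 features tested, with Benjamini-Hochberg adjustment, 0 of the 13 had an adjusted p under 0.05 (0.00390% of all features tested did), and 0 had an unadjusted p under 0.05 (3.52% of all did). edgeR's quasi-likelihood test and DESeq2 on the recovered reads also gave 0 of 13 at an unadjusted or an adjusted p under 0.05. The groups overlapped in each of the 13, whereas 2.50% of all features tested had groups that did not overlap. The median log2 difference, Slm2KO minus WT, was 0.036 over the 13, beside -0.011 over all features tested; 8 were positive and 5 negative, where 46.1% of all features were positive.

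The genes of the heavy-strand precursor differed little, and the intervals bound how much. The largest of their log2 differences was that of mt-Nd3, at 0.12 with an SE of 0.109 (95% interval 0.919- to 1.28-fold; limma, adjusted p = 1.00). mt-Nd3 held 193505, 172770, 212835 and 221978 normalised reads in WT and 189172, 205692, 217668 and 260022 in Slm2KO libraries 1 to 4, with Slm2KO 4 highest and the groups mixed. The mt-Rnr1 feature held 471503, 418659, 500788 and 662112 in WT and 515541, 541113, 524985 and 559856 in Slm2KO libraries 1 to 4. WT holds both its lowest value, WT 2, and its highest, WT 4, and the log2 difference was 0.08 (interval of 0.874- to 1.28-fold). Without WT 4 it was 0.21, with an interval on the log2 scale of 0.03 to 0.39 (limma unadjusted p = 0.0291; adjusted p = 1.00). For mt-Co1 the log2 difference was 0.07 (interval of 0.899- to 1.22-fold), for the mt-Nd4l and mt-Nd4 feature 0.07 (0.922- to 1.19-fold) and for the mt-Nd5 and mt-Cytb feature 0.03 (0.877- to 1.19-fold). The mt-Nd2 feature and the feature of mt-Rnr2 and mt-Nd1 were at 0.07 and 0.08. The chromosome 1 features over mt-Co2 and over mt-Atp6 and mt-Co3 were at 0.04 (0.905- to 1.17-fold) and 0.06 (0.896- to 1.21-fold). In bulk tissue, the level of these transcripts per cell and the number of cells that hold them cannot be told apart.

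The opposite-side features had wider intervals. The mt-Nd6 feature was 81382 ± 21740 in WT and 67387 ± 10712 in Slm2KO libraries (SD, n = 4; log2 difference -0.24; interval of 0.623- to 1.15-fold; limma adjusted p = 1.00). The feature across mt-Nd3 was at -0.31 (0.562- to 1.16-fold), that inside mt-Nd1 at -0.20 and that inside mt-Rnr1 at -0.40, while the minus-strand control region was at 0.04. Across the copies on chromosome 1 the log2 differences were -0.58 for the mt-Co1 copy (interval of 0.433- to 1.04-fold) and -0.41 for the mt-Atp6 copy. Apart from the control region, the intervals of all these opposite-side features reach to 0.623-fold or lower.

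WT 2 was the lowest or next to lowest library in the features across mt-Nd5 and mt-Nd3 and across the chromosome 1 copies. Without WT 2 the log2 difference of the mt-Nd6 feature went from -0.24 to -0.45, with a 95% interval on the log2 scale of -0.74 to -0.17 (limma unadjusted p = 0.00521; adjusted p = 1.00). The feature across mt-Nd3 went to -0.57 (-0.88 to -0.26; limma unadjusted p = 0.00229; adjusted p = 1.00). Across the mt-Co1 copy the difference went to -0.83 and across the mt-Atp6 copy to -0.67, with intervals that also excluded 0. After adjustment 0 of these passed. For the mt-Nd6 feature and the feature across mt-Nd3, WT 2 was the only WT library below the Slm2KO libraries. Leaving it out therefore had to part their groups and enlarge their differences.

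Other libraries moved these values as well. Over the 8 fits that each leave out 1 library, the mt-Nd6 feature ran from -0.455 to -0.130, with the smallest size without WT 4, and the feature across mt-Nd3 from -0.569 to -0.206, with the smallest size again without WT 4. The feature inside mt-Nd1 ran from -0.404 without Slm2KO 3 to -0.0165 without WT 4, and that inside mt-Rnr1 from -0.515 without Slm2KO 3 to -0.176 without WT 4. Without Slm2KO 1 the features across the mt-Co1 and mt-Atp6 copies were at -0.79 and -0.68 (limma unadjusted p = 0.0152 and 0.0384; adjusted p = 0.955 for both). With the replicate number as a block, the interval for the mt-Co1 copy was -1.05 to -0.11 on the log2 scale (limma unadjusted p = 0.0228; adjusted p = 1.00). All of these stayed negative in each fit that left out 1 library.

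Without both extreme Ttr libraries, WT 2 and Slm2KO 4, the mt-Nd6 feature was at -0.50 and the feature across mt-Nd3 at -0.59 (limma unadjusted p = 0.00383 and 0.00341; adjusted p = 0.770 for both). The plus-strand control region was at -0.15 (unadjusted p = 0.0231; adjusted p = 0.770). In that fit 3 of the 13 chromosome M features had an unadjusted p under 0.05 by limma and 0 passed after adjustment. Over all 25667 features tested, 1623 had an unadjusted p under 0.05 in the same fit, against 904 with all 8 libraries. The removal of these libraries was chosen after seeing the data. For the mt-Nd6 feature and the feature across mt-Nd3, leaving out WT 2 had to part the groups here too.

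**Figure D4:**
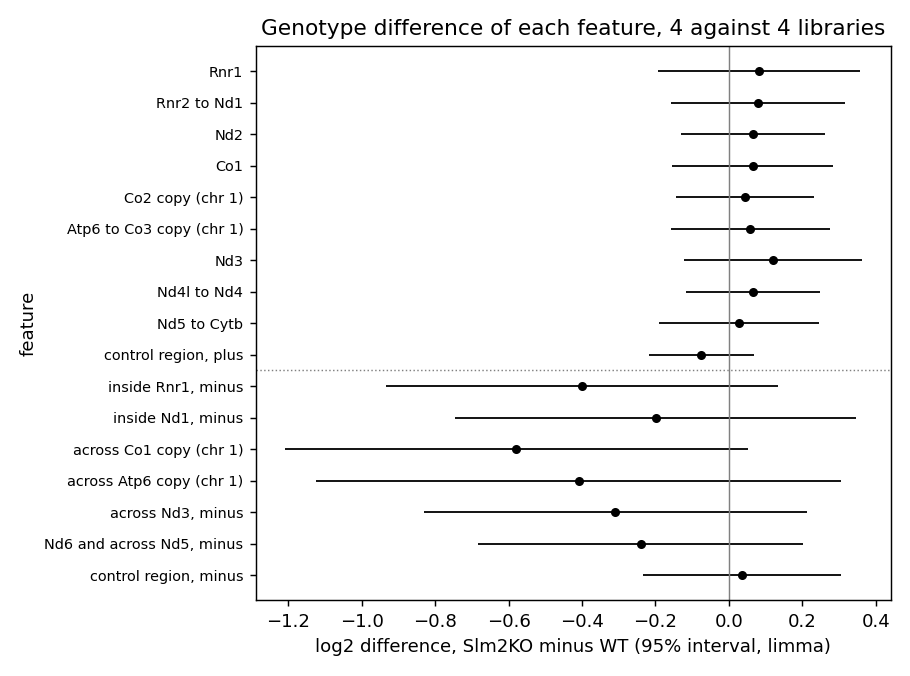
Log2 difference, Slm2KO minus WT, with its 95% interval from limma for the 13 chromosome M features and the 4 features over chromosome 1 copies (4 libraries per label); the dotted line parts heavy-strand genes, above, from opposite-side features, below. Every interval includes 0, and those below the line are wider, except for the control region.

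Composition within the mitochondrial reads is free of the scaling of nuclear genes. Of 13 shares of the chromosome M reads, 0 passed after Benjamini-Hochberg adjustment over the 13 exact permutation tests. The smallest p was that of the plus-strand control region GSMG0041519, the stretch that holds mt-Tp on its other strand and the noncoding region. It made up 0.390% ± 0.0139 of the chromosome M reads in WT and 0.355% ± 0.00830 in Slm2KO libraries (SD, n = 4). The WT libraries 1 to 4 were at 0.390%, 0.387%, 0.408% and 0.375%, and the Slm2KO libraries 1 to 4 at 0.361%, 0.348%, 0.348% and 0.364%. Each Slm2KO library was below each WT library in this share, the only one of the 13 shares where the groups did not overlap (exact permutation p = 0.0286, the smallest possible; adjusted p = 0.371). Over all features tested, 2.50% had groups that did not overlap, though in normalised read counts and not in shares. The difference in the control region share was -0.0337 percentage points in the lower and -0.0355 in the higher sample numbers. Without single libraries the difference was -0.0397 to -0.0285 percentage points, and without the libraries of lowest and highest Ttr the difference was -0.0385. The exact permutation p, before adjustment, was 0.0571 without Slm2KO 2 or Slm2KO 3, and 0.100 without the Ttr extremes, the smallest that 3 against 3 allows. In normalised read counts the groups did overlap for this feature, at 52267 ± 4122 and 49517 ± 1900 (SD, n = 4; log2 difference -0.08).

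Of 4 class ratios, 0 passed between the labels. The minus-strand features together took 0.886% ± 0.146 of the chromosome M reads in WT and 0.753% ± 0.0671 in Slm2KO libraries (SD, n = 4; exact permutation p = 0.171; adjusted p = 0.686 over 4 ratios). WT 2, at 0.673%, was the lowest of all 8, while the other WT libraries were at 0.910%, 0.976% and 0.986% and the Slm2KO libraries between 0.696% and 0.830%. Without WT 2 the difference went from -0.133 to -0.205 percentage points and the groups no longer overlapped. The exact permutation p was then 0.0286 before adjustment, the smallest that the remaining libraries allow. WT 2 was the only WT library below the highest Slm2KO library, so leaving it out had to part the groups. The difference was -0.0279 points in the lower and -0.239 in the higher sample numbers. The mt-Rnr1 feature stood at 25.1% ± 1.69 of the read count of the mt-Rnr2 and mt-Nd1 feature in WT and at 25.1% ± 0.526 in Slm2KO libraries (SD, n = 4; exact permutation p = 1.00). WT 4 had the highest ratio, at 27.5%, and WT 2 the lowest, at 23.8%.

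Nuclear genes that serve the mitochondrial genome were followed in lists, with 0 members past the threshold in each by limma (0.00390% of all features tested passed). Of 11 genes of mitochondrial transcription, 7 were positive and 4 negative, with a median log2 difference of 0.07. Top1mt, the mitochondrial topoisomerase, was at -0.14, Mterf3, a transcription repressor, at 0.13 and Tefm, the elongation factor, at 0.16. Tfam, which packs mtDNA and starts its transcription, held 7297 ± 405 normalised reads in WT and 7380 ± 260 in Slm2KO libraries (SD, n = 4), and Polrmt, the RNA polymerase, 2288 ± 215 and 2211 ± 266; these 2 were chosen after their values were seen.

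Of 24 genes of mitochondrial RNA processing and decay, 15 were positive and 9 negative (median 0.03). Fastkd1, an RNA-binding protein of the FASTK family, was 749 ± 21.7 in WT and 835 ± 40.5 in Slm2KO libraries (SD, n = 4; log2 difference 0.16), the only gene of the 6 mitochondrial lists with an unadjusted p under 0.05 (3.52% of all features tested). Trmt10c, a subunit of the RNase that cuts tRNA 5′ ends, and Pnpt1, the polynucleotide phosphorylase, were both at 0.11. The 13 replication and maintenance genes had a median of 0.00, with Rnaseh1 at -0.09, Polg, the DNA polymerase, at -0.07 and Slc25a4, the ATP/ADP carrier, at -0.05. The 12 translation factors had a median of 0.01, with Gfm2 at -0.09, Guf1 at 0.09 and Tufm at -0.10.

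Among markers of mitochondrial content 0 passed. The 14 content and outer membrane genes had a median log2 difference of 0.01, with the channels Vdac3 and Vdac2 at 0.10 and 0.08 and the import pore Tomm40 at -0.10. Among 11 nuclear regulators the median was -0.02, with Esrra, Gabpa and Nrf1, transcription factors of respiratory genes, at -0.09, -0.09 and -0.07. Of the markers of other cells, 0 passed in any list. The 10 choroid plexus genes had a median of 0.06 (Cldn2 0.27, Prlr -0.18, Clic6 0.10), and the 8 hippocampal neuron genes -0.05 (Dsp -0.26, Prox1 -0.20, Neurod6 0.08). Of these neuron genes 6 of 8 were negative and 2, Dsp and Prox1, had an unadjusted p under 0.05 by limma (0.0294 and 0.0457), where 3.52% of all features tested did. The 5 blood genes were all positive, with a median of 0.27 (Hbb-bs 0.28, Hbb-bt 0.33, Hba-a2 0.27). The part of these cells in the mitochondrial values was not tested.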

How the data were processed

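RNA-seq of mouse hippocampus was deposited as 1 table. Each signal value is a normalised read count deposited by the authors, per the file headers. DESeq, FastQC, Picard and SAMtools are named, without roles, per the submitters' processing notes. Neither names an aligner, a counting or strand rule, or the handling of reads with several matches. Those notes list hg19, whereas the table's coordinates are headed mm10. Libraries were made from total RNA with a TruSeq RNA kit, per the labels' protocols.

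Values were whole multiples of 1 step per library (100% within 0.001 of a read), so reads were recovered; for WT 1 the step was too near 1 to be told from rounding alone. Groups were compared with limma 3.58.1 (R 4.3.3) on log2(value + 1) with a trended prior, for features with a mean of at least 10, adjusted over all 25667 tested at 0.05. Shares and 4 class ratios were compared by two-sided exact permutation tests (70 assignments), with adjustment over 13 shares and over the ratios. Because features merge rRNA with mRNA and none holds a tRNA alone, the rRNA share covers features that hold rRNA, the tRNA share was not computed, and a share of features with mRNA only was used. Intervals are 95%. Copies were sought as shared 30-base stretches with GENCODE vM21 transcripts, and features under 5000 bases were used. Procedures were tested on simulated data.

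All 12 replicate pairs differed by more than counting error (chi-square over its degrees of freedom, 16.8 to 130), so replicate spread limits precision. Separate animals are not stated, so each p-value measures only the spread among the samples, which may be technical. Named are all chromosome M features and, from each nuclear list, genes past the threshold or the 3 with the smallest p. Lists of nuclear copies (13 entries) matched 0 symbols and were replaced by coordinates; the other mitochondrial lists matched 85 of 92 entries. Members and lists were chosen with earlier results of these data known. Alternatives were pseudocounts of 0.5 and 10, no filter or a mean of at least 50, TMM factors and edgeR 4.0.16, size factors without chromosome M, DESeq2 1.42.0, the replicate number as a block, other denominators, and each library left out; the sample-number covariate, the removal of the lowest and highest Ttr libraries and the added copies were chosen after seeing the data. Tables and figures used Python 3.11.15 and matplotlib 3.10.9.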

Additional observations from a re-analysis of the deposited data

Results flagged for a closer look

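The ratio of the mt-Rnr1 feature to the feature of mt-Rnr2 and mt-Nd1 went opposite ways in the lower and the higher sample numbers. In the lower numbers both Slm2KO libraries were above both WT libraries, with a difference of 1.53 percentage points. In the higher numbers both were below, with a difference of -1.54 percentage points. There WT 3 and WT 4 were at 24.97% and 27.51%, and Slm2KO 3 and Slm2KO 4 at 24.47% and 24.94%. Most of the difference in the higher numbers thus rests on WT 4. This difference between the number ranges was not tested. A check for a single library far from the rest of its label, over 36 groups of 4, found 0. It used the Dixon gap rule, with a critical value of 0.829 for 4 values. That rule flags only a gap that fills most of the range, so it cannot exclude lesser outlying libraries.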

How the results depend on the processing

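With every alternative, 0 of the 13 mitochondrial features passed in limma, edgeR or DESeq2. Among all features tested, 1 passed, with 2 at a pseudocount of 10, 9 in DESeq2 and 0 to 2 without single libraries. The replicate block left 1. Deviations of same-numbered samples from their label means correlated at 0.124, 0.323, -0.0654 and -0.122 for numbers 1 to 4. Pairs of unlike numbers ran from -0.322 to 0.317. WT 2 and Slm2KO 2 were thus the highest pair, while same-numbered samples did not all deviate together. The block gave a share difference of 0.456 percentage points (exact sign-flip p = 0.125, the smallest possible). Without single libraries the share difference ran from 0.143 to 0.739, and without the lowest and highest Ttr libraries it was -0.0793. The latter libraries also had the lowest and the highest share, so leaving them out lowers the difference whatever their Ttr.

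Signs of several small differences depended on single libraries. Log2 differences ran from -0.00968 to 0.211 for mt-Rnr1 (GSMG0041510), from -0.0163 to 0.0796 for mt-Nd5 and mt-Cytb and from -0.0436 to 0.136 for the minus-strand control region. Without both extreme Ttr libraries they were -0.0314 for mt-Rnr1, -0.0112 for mt-Rnr2 and mt-Nd1, -0.0367 for mt-Nd3, -0.0430 for mt-Nd5 and mt-Cytb and -0.0579 for the minus-strand control region. In percentage points, leaving out single libraries gave -0.0804 to 0.854 for the rRNA-holding share, -0.441 to 0.801 for mt-Rnr1 over mt-Rnr2 and mt-Nd1, -0.205 to -0.100 for the minus-strand share and -0.715 to 0.321 for the mRNA share. Without both extreme Ttr libraries the first and last were -0.241 and 0.496. The ratio of mt-Rnr1 was 0.00193 as a difference of mean log2 values. Shares of the chromosome M reads ran from -0.0769 to 0.266 for mt-Rnr1, -0.00351 to 0.589 for mt-Rnr2 and mt-Nd1, -0.265 to 0.231 for mt-Nd2, -0.316 to 0.539 for mt-Co1, -0.0143 to 0.129 for mt-Nd3, -0.158 to 0.364 for mt-Nd4l and mt-Nd4 and -0.0167 to 0.00686 for the minus-strand control region; without both extreme Ttr libraries they were -0.102 for mt-Rnr1, -0.138 for mt-Rnr2 and mt-Nd1 and -0.0378 for mt-Nd3. The share of the plus-strand control region kept its sign. The cause of these changes was not tested.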
